A study of Homo sapiens with 9 samples.

Results

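Rosemary extract was set directly against carnosic acid in HT-29 cells, an established human colon adenocarcinoma line with epithelial morphology, using 6 of the 9 arrays of the series. The members were chosen by their titles, 3 arrays from cells given rosemary extract for 24 h and 3 from cells given carnosic acid for 24 h. The other 3 arrays, titled untreated and from cells given the vehicle, served for the fit and for reference levels. They are called untreated below. All cells were grown in McCoy's 5A medium with fetal calf serum, trypsinized after treatment, and their total RNA was extracted with Trizol and hybridised to Affymetrix GeneChip 2.0 ST arrays. Per the design text of the series the 3 arrays per group are biological replicates. No culture day or scan batch is given in the labels. No source used here gives the amounts of extract or carnosic acid, or how much carnosic acid the extract holds, and the comparison is therefore not at a known or matched dose. HT-29 is 1 line in culture and holds no other cell types of the colon.

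Carnosic acid is a phenolic diterpene of rosemary leaves that oxidises readily to an electrophilic quinone. Rosemary extract contains it together with other diterpenes, triterpenes and phenolic acids. Electrophiles release the transcription factor NRF2 from KEAP1 and raise antioxidant enzymes, misfolded proteins in the endoplasmic reticulum (ER) activate the sensors of the unfolded protein response, and several kinases that phosphorylate eIF2 alpha raise ATF4 and its targets in the integrated stress response.

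Each value is the deposited RMA expression value on a log2 scale, so a difference of 1 is a 2-fold change. Of 14884 named genes, 11163 had a mean level above 4.50 over all 9 arrays and were tested. A gene dim without the extract can pass this limit through its extract arrays. Among the genes named below this held for MT1H, CLGN, LAMP3 and ULBP1, so their being tested depended on their difference. The number of arrays limits the precision, and the median standard error of a difference was 0.0931. Colon epithelial markers matched the label, with 10 of 13 present on a named row and all 10 above 4.50, from CDX2 at 5.67 to KRT18 at 12.32. Their mean per array was 8.73 to 8.83 with extract and 8.83 to 8.90 with carnosic acid. Markers of other cells were not all dim. The 3 leukocyte markers with a row were all above 4.50, from CD14 at 4.78 to LYZ, lysozyme, at 12.32, and their mean per array was 8.80 to 8.97 with extract and 8.62 to 8.87 with carnosic acid. CD68, which is also a lysosomal membrane protein, was at 9.97, 9.80 and 9.72 with extract, 9.31, 9.10 and 9.13 with carnosic acid and 7.94 untreated. Of 3 genes with a row in each list, 1 fibroblast gene (THY1 at 6.05), 1 endothelial gene (VWF at 4.82) and 2 hepatocyte genes (TTR the higher, at 5.98) were above 4.50. PTPRC and CD3E had no named row and were not analysed here. The part of these markers in the results was not tested.

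The extract and carnosic acid differed for 1933 genes at an adjusted p under 0.05 (limma, 2-sided, Benjamini-Hochberg adjustment over all genes tested), which is 17.3% of the genes tested. Of these, 920 genes (8.24%) were higher and 1013 (9.07%) were lower with the extract. Differences of at least 2-fold were mostly in the lower direction, with 173 genes lower and 41 higher. At 4-fold or more, 6 genes were lower and 5 higher, and 4 of the higher genes were metallothioneins. These higher genes include MT1H and CLGN, which were tested only because their extract arrays were high. The 3 extract arrays lay wholly outside the range of the 3 carnosic acid arrays for 31.8% of the genes tested, 1810 above and 1741 below. The median difference over all genes was 0.012. RMA brings the arrays to a common distribution, so a shift of all genes together could not be seen. The count of higher genes depended on single arrays. It was 551 without extract array 1, 533 without extract array 2 and 612 without carnosic acid array 2.

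**Figure D1:**
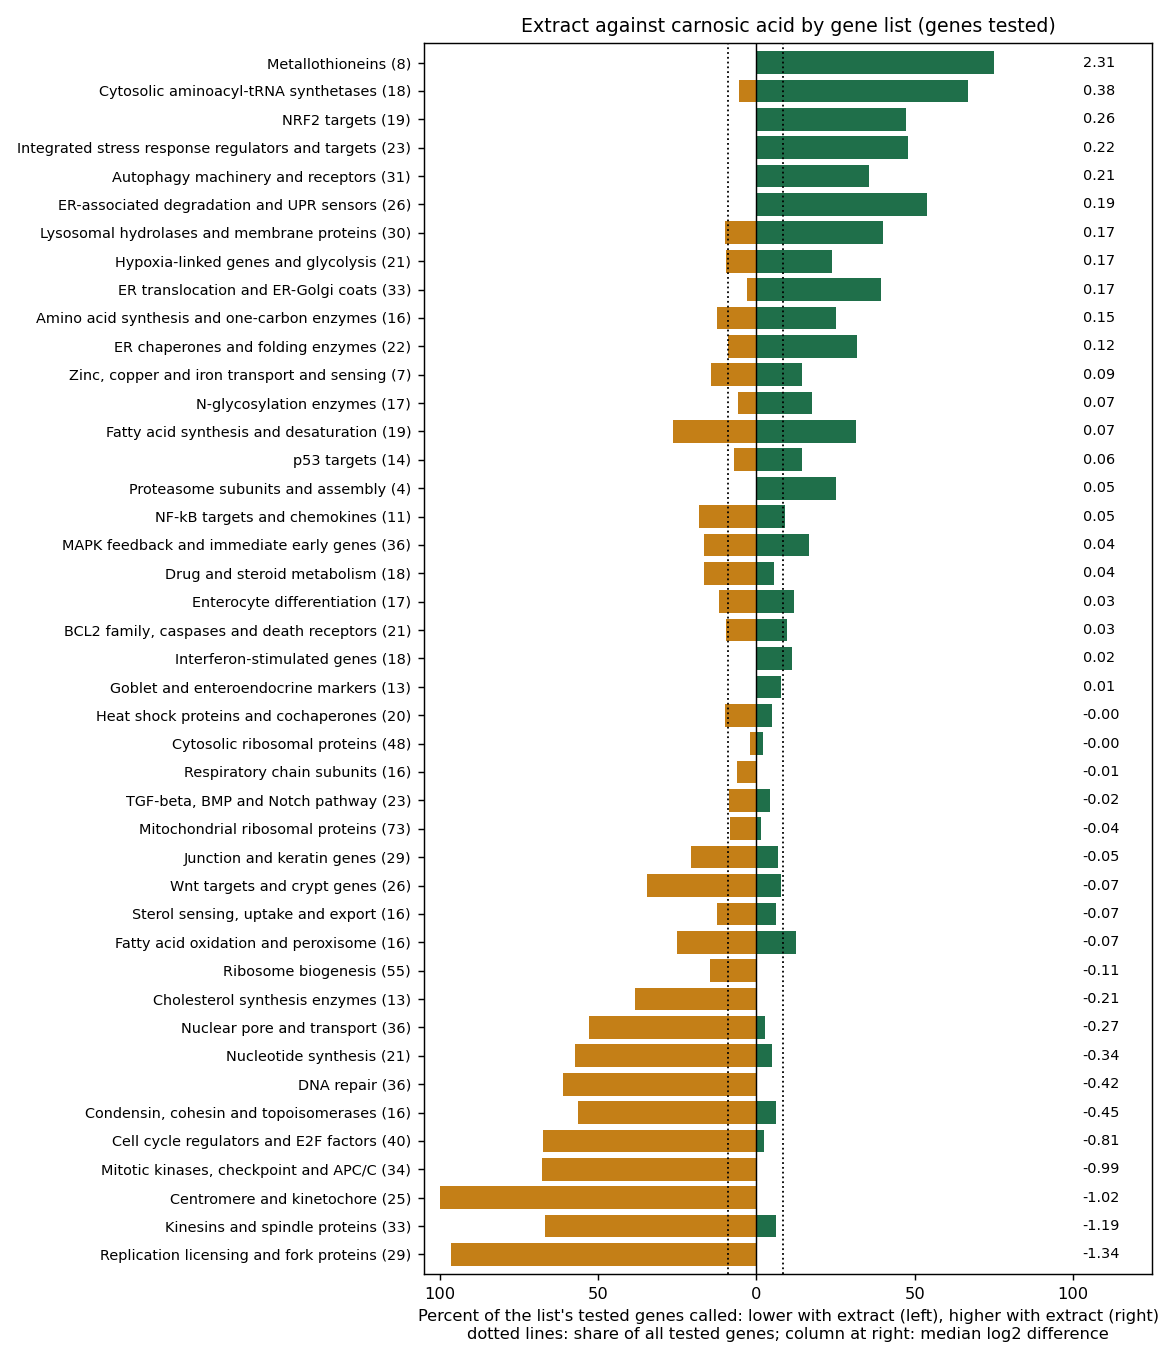
Percent of each list's tested genes called lower (left, orange) or higher (right, green) with rosemary extract than with carnosic acid, for the 43 gene lists with tested members. The number of genes tested is in brackets, the median log2 difference at the right edge, and dotted lines give the shares over all genes, 9.07% and 8.24%. Replication, mitotic and centromere lists extend to the left, and metallothioneins and tRNA synthetases furthest to the right.

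Most genes differed little between the treatments. The 95% interval of the difference lay within 0.5 log2 of 0 for 8872 genes (79.5%), of which 527 were nonetheless called. Among the 9230 genes that were not called, 885 had an interval reaching beyond 0.5, so a difference of that size was not excluded there. Cytosolic ribosomal proteins were the flattest of the large lists. All 48 tested had an interval within 0.5, and 1 was called higher and 1 lower. Counts of 1 or 2 genes in a list, here and below, often changed by a gene when 1 array was left out.

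Metallothioneins were the genes that separated the extract most from carnosic acid. These small cysteine-rich proteins bind zinc, copper and cadmium, and most of the human genes lie side by side on chromosome 16. Of 8 tested, 6 were called higher with the extract and 0 lower, with a median difference of 2.31. MT1G measured 11.22, 11.32 and 11.44 in the extract arrays and 5.55, 5.65 and 5.77 in the carnosic acid arrays, against an untreated mean of 5.23. The extract arrays did not come near the other 6, and carnosic acid lay 0.43 above untreated. MT1X stood at 10.49, 10.69 and 10.80 with extract and at 7.37, 7.62 and 7.55 with carnosic acid, where its mean differed from the untreated mean by 0.07. MT1H was at 8.35, 8.72 and 8.66 with extract, while its carnosic acid mean of 3.21 and untreated mean of 3.31 were under the limit of 4.50, so no fold is given for it. MT1H passed the limit only through its extract arrays, so its place among the 8 tested and 6 called, and in the median, depended on its difference.

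MT1F was at 10.02, 10.33 and 10.42 with extract and at 6.70, 6.18 and 5.90 with carnosic acid, the latter 0.89 above the untreated mean of 5.37. MT2A, the most abundant isoform in many tissues, measured 9.67, 9.88 and 9.92 with extract and 8.40, 8.39 and 8.29 with carnosic acid, a difference of 1.47 ± 0.0939 (SE; limma adjusted p = 1.29e-06), and carnosic acid lay 0.34 above untreated. MT1E was higher by 0.65 ± 0.143 (limma adjusted p = 0.00847), with non-overlapping arrays at 6.31 to 6.81 and 5.68 to 6.13. MT3, a brain-enriched member, had extract arrays at 5.56 to 5.64 above carnosic acid arrays at 4.99 to 5.46, but its adjusted p was 0.205. MT4, a member of squamous epithelia, overlapped between the groups, with a difference of -0.09 and an interval of -0.34 to 0.17. MT1B and MT1M were below 4.50 in every group mean and were not tested. The isoforms are near-identical in sequence, so array probes of one may also read another. Of 39 other genes of zinc, copper and iron handling, 7 were tested, and the rest had no named row and were not analysed. Of the 7, 1 was called higher (NCOA4, 0.22) and 1 lower (STEAP4, -0.42), which is 28.6% against 17.3% of all genes. Their median was 0.09, and 6 intervals lay within 0.5. MTF1, the zinc-sensing factor that binds metallothionein promoters, was higher by 0.25 with a limma adjusted p of 0.0532.

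**Figure D2:**
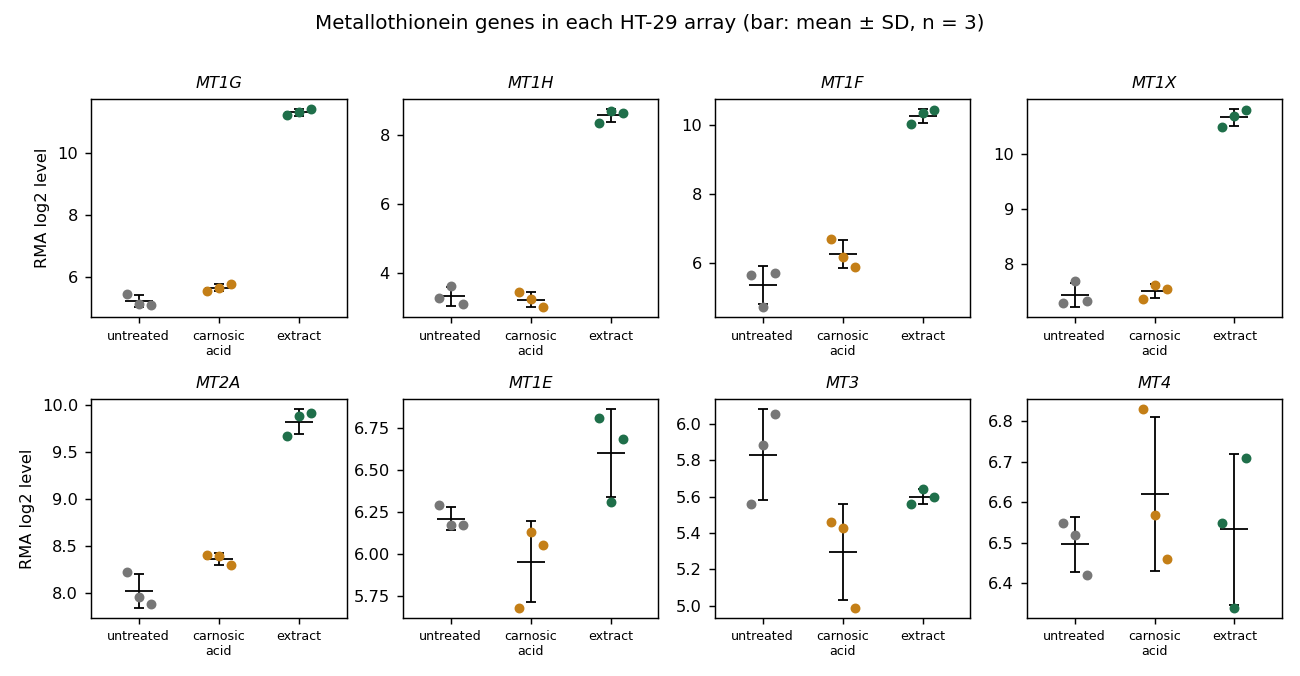
RMA log2 level (vertical axis) of 8 metallothionein genes in the untreated, carnosic acid and rosemary extract groups. Coloured points are single arrays, and black bars give the mean ± SD of 3 arrays. The extract arrays of MT1G reach 11.22 to 11.44 while the carnosic acid arrays stay at 5.55 to 5.77, and MT4 overlaps in all groups.

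Promoters from RefSeq's promoter table (GRCh38.p14) are shown for 3 called metallothioneins and for MT4, which was not called, because all 4 lie on chromosome 16. The table holds 5 metallothionein promoters of the list, the other being that of the untested MT1B. Each line gives the 200 bases before the transcription start, 5′ to 3′ on the gene's strand, with matches to the metal response element core in capitals. The motif was searched as TGCACNC or TGCGCNC on both strands, and overlapping matches were counted separately.
MT1H: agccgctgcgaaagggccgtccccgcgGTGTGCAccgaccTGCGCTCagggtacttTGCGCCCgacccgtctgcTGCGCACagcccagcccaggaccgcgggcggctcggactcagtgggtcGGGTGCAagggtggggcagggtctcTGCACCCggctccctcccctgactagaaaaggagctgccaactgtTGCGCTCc
MT1X: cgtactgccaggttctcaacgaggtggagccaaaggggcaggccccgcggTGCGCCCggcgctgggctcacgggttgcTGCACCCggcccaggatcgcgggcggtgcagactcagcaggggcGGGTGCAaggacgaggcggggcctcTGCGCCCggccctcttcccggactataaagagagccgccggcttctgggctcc
MT2A: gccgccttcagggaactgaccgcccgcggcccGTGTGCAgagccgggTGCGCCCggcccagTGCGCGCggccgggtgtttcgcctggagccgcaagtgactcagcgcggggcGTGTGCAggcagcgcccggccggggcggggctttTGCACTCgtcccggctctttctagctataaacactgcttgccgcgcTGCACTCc
MT4: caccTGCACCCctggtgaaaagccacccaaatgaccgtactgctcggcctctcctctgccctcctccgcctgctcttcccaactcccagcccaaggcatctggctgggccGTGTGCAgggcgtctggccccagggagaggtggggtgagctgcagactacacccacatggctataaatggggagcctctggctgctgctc
These stretches lie at chr16:56669614-56669813, chr16:56682270-56682469, chr16:56608384-56608583 and chr16:56564873-56565072, all on the plus strand. MT1H held 7 matches, MT2A 6 and MT1X 4, against 2 in MT4, whose arrays overlapped between the groups. Between MT2A and MT1X the number of matches did not follow the difference, which was 1.47 for MT2A and 3.15 for MT1X. Promoters of MT1G and MT1F were not in the promoter table. The 35116 promoters of 300 bases in the table hold 250 bases before the start and 50 after it. Matches are common, since 29.6% of them and 37.6% of those of tested genes had at least 1. A match describes the letters of the window and not a bound site.

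Among NRF2 targets, 9 of 19 tested were called higher with the extract and 0 lower (47.4% called, against 17.3% of all genes). The median was 0.26, and 10 intervals lay within 0.5. The higher count was 7 to 10 when 1 array was left out and 12 with the replicate number as a block. HMOX1, heme oxygenase, measured 10.29, 10.40 and 10.15 with extract and 8.36, 8.35 and 8.15 with carnosic acid, against 7.32 in untreated cells. The groups lay apart by 1.99 ± 0.087 (SE), which is 3.98-fold (limma adjusted p = 1.56e-07). CBR3, a carbonyl reductase, was 2.16-fold higher with extract, with arrays at 7.71 to 7.95 against 6.61 to 6.75. SRXN1, which repairs overoxidised peroxiredoxins, reached 10.84, 10.97 and 10.78 with extract and 10.04, 9.81 and 9.76 with carnosic acid. With carnosic acid SRXN1 lay above untreated cells by 1.42 and CBR3 by 1.21. Smaller differences were called for OSGIN1 (0.67), SQSTM1 (0.41), TXNRD1 (0.38) and PGD (0.33). NQO1 and GCLM had no row with a gene name in the annotation used here and were not analysed. Heat shock proteins did not share the pattern, with 1 of 20 called higher (BAG3, 0.29), 2 lower and 19 intervals within 0.5. HSPA1A, the inducible HSP70, differed by -0.08 with an interval of -0.22 to 0.05. HSPB1, a small heat shock protein, was lower by a log2 difference of -0.68 (limma adjusted p = 0.0119), but without extract array 1 the difference was -0.54 and the adjusted p 0.0569, and 0 of the 20 were then called lower.

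Of 23 tested regulators and targets of the integrated stress response, 11 were called higher with the extract and 0 lower, with a median of 0.22. Over the metallothionein, stress, amino acid, ER, lysosome and autophagy lists 98 genes were called higher, and array 3 was the lowest of its group for 68 of them with extract and for 59 with carnosic acid. The integrated stress response count was 11 without extract array 3 and 10 without carnosic acid array 3. ATF4, the translationally controlled factor at its centre, was 9.81, 9.78 and 9.77 with extract and 9.55, 9.46 and 9.36 with carnosic acid, a modest 0.33 ± 0.0593 (SE; limma adjusted p = 0.00262). Its mean with carnosic acid differed from the untreated mean by -0.12. DDIT3, which encodes CHOP, stood at 6.48, 6.48 and 6.28 against 5.84, 5.70 and 5.42, or 1.70-fold higher. TRIB3, a pseudokinase and CHOP target, differed by 1.23 ± 0.135, with extract array 3 the lowest of its group at 8.34 and still above all carnosic acid arrays (7.48 to 7.54). Larger differences were found for the mTORC1 inhibitors SESN2, at 8.66, 8.43 and 8.13 against 6.86, 6.89 and 6.73, and DDIT4, at 8.19, 8.18 and 8.07 against 6.80, 6.80 and 6.60. In SESN2 the difference was 2.98-fold and in DDIT4 2.66-fold. GDF15, a stress-induced cytokine, was 2.40-fold higher with extract and in carnosic acid arrays differed from untreated by only -0.03. VLDLR, a lipoprotein receptor, and VEGFA, an angiogenic factor, were 2.31-fold and 2.14-fold higher.

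Amino acid enzymes and tRNA synthetases include known ATF4 targets. Of 16 tested enzymes of amino acid synthesis and one-carbon metabolism, 4 were called higher and 2 lower. ASNS, asparagine synthetase, measured 9.27, 9.27 and 9.16 with extract and 8.20, 8.37 and 8.13 with carnosic acid, with untreated cells at 7.11. The interval of the difference was 0.83 to 1.16 (limma adjusted p = 4.49e-06). CTH, which makes cysteine, was 2.44-fold higher and PSAT1, of serine synthesis, 1.71-fold higher. The members called lower were SHMT1, a folate enzyme, at 6.17, 6.15 and 6.10 against 7.02, 6.86 and 7.39, and GLUL, glutamine synthetase, at -0.35. Cytosolic aminoacyl-tRNA synthetases, which charge tRNAs, were called higher in 12 of 18 and lower in 1, with a median of 0.38. AARS1 had extract arrays at 10.76, 10.74 and 10.74 and carnosic acid arrays at 9.93, 9.95 and 9.87. SARS1, GARS1 and WARS1 were 1.77-fold, 1.72-fold and 1.68-fold higher. The member called lower, VARS1, had a difference of -0.25 and was not called when extract array 1 or 2 or any carnosic acid array was left out, nor under either other normalization.

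The promoters of ASNS, whose amino acid response element is well characterised, and of AARS1 are printed because ASNS and AARS1 led their lists or lay close to the lead. Capitals mark matches to TGATGNAA, the core shared by C/EBP-ATF composite elements, searched on both strands in the 200 bases before the start.
ASNS: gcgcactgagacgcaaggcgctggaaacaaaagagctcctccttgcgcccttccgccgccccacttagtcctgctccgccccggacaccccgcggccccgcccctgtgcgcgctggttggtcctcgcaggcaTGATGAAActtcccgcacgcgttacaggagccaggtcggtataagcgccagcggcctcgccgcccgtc
AARS1: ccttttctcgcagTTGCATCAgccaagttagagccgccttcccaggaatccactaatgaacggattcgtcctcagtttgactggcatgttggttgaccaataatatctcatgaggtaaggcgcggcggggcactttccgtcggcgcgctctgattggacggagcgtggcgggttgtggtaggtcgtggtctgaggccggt
They lie at chr7:97872409-97872608 and chr16:70289507-70289706, both on the minus strand. In promoters of 300 bases, 50 of them after the start, the letters were present for 6 of the 14 tested cytosolic synthetases in the table (42.9%). For CARS1, MARS1, NARS1 and TARS1 no match lay in the 200 bases before the start. The share was 1.71% over promoters of tested genes and 3.62% over all promoters. The letters were found in 2 of 21 promoters of the integrated stress response list (9.52%).

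Genes of the ER were called higher in part. Of 26 tested genes of ER-associated degradation and the unfolded protein response sensors, 14 were called higher and 0 lower, with a median of 0.19. This count was 9 when any of extract arrays 1 and 2 and carnosic acid arrays 2 and 3 was left out. ERN1, the IRE1 alpha sensor, was at 7.67, 7.37 and 7.05 with extract and at 6.36, 6.31 and 6.35 with carnosic acid. It was the most widely separated of these genes, at 2.03-fold (limma adjusted p = 0.000756). SEL1L, the adaptor of the HRD1 ubiquitin ligase, measured 9.50, 9.51 and 9.30 against 8.78, 8.82 and 8.69. The sensor ATF6 was higher by 0.50 ± 0.0623 and XBP1, the factor spliced by IRE1 alpha, by 0.40 ± 0.0632 (SE), with non-overlapping arrays in both.

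Among ER chaperones, 7 of 22 were called higher and 2 lower. CLGN, a calnexin-related lectin chaperone, had extract arrays at 6.77, 7.28 and 7.19 and carnosic acid arrays at 4.74, 4.67 and 4.41. HYOU1, which works with the ER HSP70, was at 10.54, 10.53 and 10.53 against 10.17, 10.19 and 10.10, or 1.31-fold higher. CREB3L2, an ER-anchored factor of the secretory pathway, differed by 0.49. CALR, calreticulin, was lower by a log2 difference of -0.13 (limma adjusted p = 0.0186), and was not called without extract array 1 (adjusted p = 0.0702), extract array 2 (0.0725), carnosic acid array 2 (0.0749) or carnosic acid array 3 (0.0536). TMX1, a membrane thioredoxin, was lower at 9.45, 9.32 and 9.29 against 9.67, 9.68 and 9.81. Genes of translocation and ER-Golgi coats were called higher in 13 of 33 and lower in 1, and the higher count was 9 to 16 when 1 array was left out. They were led by the signal peptidase subunit SEC11C at 1.83-fold, with SEC63 at 0.39 and the cargo receptor SURF4 at 0.29. Of 17 N-glycosylation enzymes tested, 3 were called higher and 1 lower, which is 23.5% against 17.3% of all genes. Their median was 0.07, and 15 intervals lay within 0.5. The called members with the largest differences were TUSC3, an oligosaccharyltransferase subunit, and GFPT1, the entry enzyme of the hexosamine pathway. They were 2.83-fold and 1.59-fold higher. HSPA5 had no named row here and was not analysed.

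**Figure D3:**
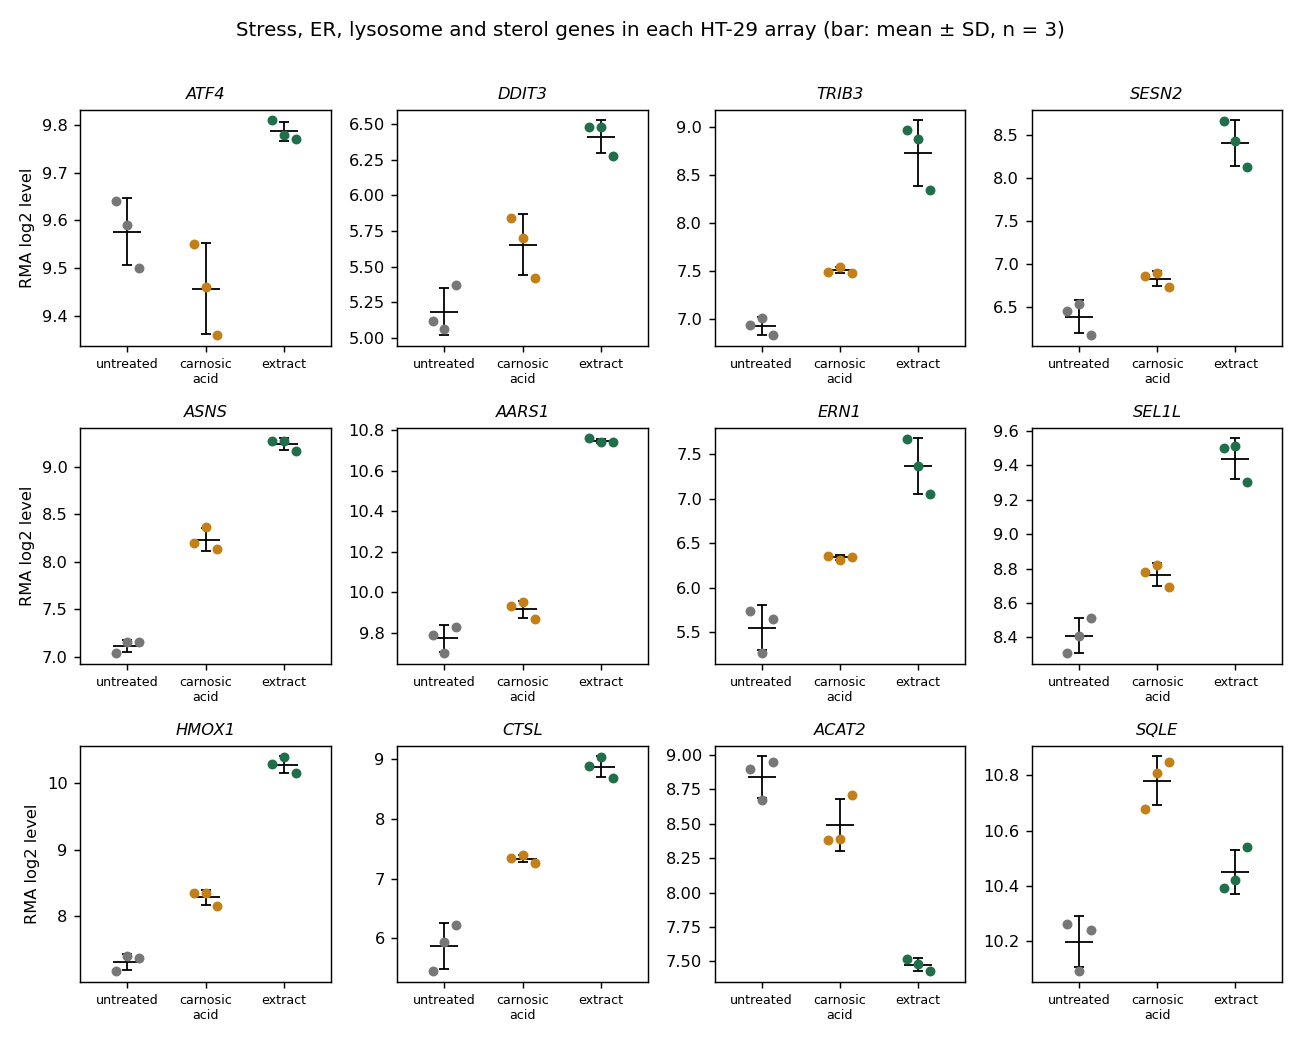
RMA log2 level of 12 genes in the untreated, carnosic acid and rosemary extract groups, each panel with its own vertical axis. Points are arrays and black bars the mean ± SD of 3 arrays. HMOX1, ASNS, CTSL and SESN2 step upwards from untreated to carnosic acid to extract, ACAT2 steps downwards, and SQLE is highest with carnosic acid.

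Of 13 cholesterol synthesis enzymes tested, 0 were called higher and 5 lower with the extract, with a median of -0.21 and 9 intervals within 0.5. ACAT2, which condenses acetyl-CoA units, measured 7.52, 7.48 and 7.43 with extract and 8.38, 8.39 and 8.71 with carnosic acid, a 2.02-fold difference (limma adjusted p = 2.97e-05). EBP and DHCR7, late enzymes of the pathway, differed by -0.37 and -0.36. SQLE, squalene epoxidase, lay at 10.39, 10.42 and 10.54 with extract, at 10.68, 10.81 and 10.85 with carnosic acid and at a mean of 10.20 in untreated cells, so that both treatments exceeded untreated cells and carnosic acid exceeded the extract. HMGCS1 had the same order, 8.01 with extract, 8.22 with carnosic acid and 7.81 untreated, and a log2 difference of -0.21 with a limma adjusted p of 0.0403. It was not called without any extract array or without carnosic acid arrays 1 or 2, where the adjusted p was 0.0565 to 0.125. The regulators did not separate the groups: INSIG1 differed by -0.06 (interval -0.26 to 0.15), SREBF1 by -0.08 (-0.28 to 0.12) and SREBF2 by -0.10 (-0.26 to 0.06), all with overlapping arrays. MYLIP, a ubiquitin ligase and LXR target, was lower at 7.37, 7.05 and 7.22 against 7.59, 7.69 and 7.80. Of 16 tested genes of sterol sensing, uptake and export, MYLIP included, 1 was called higher and 2 lower (18.8%, against 17.3% of all genes). ABCA1 had no named row and was not analysed here.

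Fatty acid genes were split. FASN, the fatty acid synthase, was 1.54-fold lower with extract, at 8.61, 8.56 and 8.66 against 9.10, 9.20 and 9.39, whereas ACSS2, an acetyl-CoA synthetase, was higher by 0.59 and LPIN2, a phosphatidate phosphatase, by 0.46. Over 19 synthesis and desaturation genes, 6 were called higher and 5 lower. The higher count was 3 without extract array 2, carnosic acid array 2 or carnosic acid array 3, and the lower count was 3 without any of those or extract array 1. In fatty acid oxidation and peroxisomes 4 of 16 were called lower and 2 higher, with a median of -0.07. The peroxisomal proteins PEX11A and PEX16 were higher by 0.47 and 0.28. HADH and ACAA2 of mitochondrial beta-oxidation were lower by log2 differences of -0.83 and -0.48, and HADH was also below its untreated mean with carnosic acid, by -0.61.

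Of 30 lysosomal genes tested, 12 were called higher with the extract, 3 lower and 15 neither way. The higher count was 8 to 13 when 1 array was left out, and the lower count was 1 without carnosic acid array 3. CTSL, the protease cathepsin L, measured 8.89, 9.04 and 8.69 with extract and 7.34, 7.39 and 7.27 with carnosic acid, against 5.87 in untreated cells, and the 2.91-fold difference between the treatments had a limma adjusted p of 4.84e-05. PSAP, the saposin precursor, was at 11.73, 11.82 and 11.72 against 11.28, 11.20 and 11.20. LAMP3, a lysosomal membrane protein of the stress response, was at 5.55, 5.95 and 5.84 with extract, and its carnosic acid mean of 4.32 was under the limit of 4.50. CTSZ, another cathepsin, was lower at 8.62, 8.79 and 8.98 against 9.32, 9.35 and 9.32. Among 31 autophagy genes, 11 were called higher and 0 lower, and 7 higher without extract array 1 or 2 or carnosic acid array 2 or 3, whereas 16 were higher without extract array 3. The cargo receptors CALCOCO2 and TAX1BP1 differed by 0.82 and 0.61, RB1CC1 of the initiation complex by 0.64 and the phagophore protein MAP1LC3B by 0.62, each with extract arrays above all carnosic acid arrays.

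Genes of DNA replication and cell division were the largest block lower with the extract. In 8 lists on replication, nucleotides, the cell cycle, mitosis, kinetochores, spindles, chromosome structure and repair, 167 of 233 tested genes were called lower and 5 higher, which is 73.8% called against 16.1% of the other 10930 genes. Those 233 genes supplied 106 of the 173 genes that were lower by 2-fold or more (61.3%). Their median difference from untreated was -1.07 with extract and -0.16 with carnosic acid, comparisons that share the untreated arrays, and the direct median was -0.91. The 5 genes called higher became 2 without extract array 1 or 2 or carnosic acid array 2 or 3, and 3 without carnosic acid array 1. Within the carnosic acid group array 3 had the highest level for 160 of the 167 genes. Without it 158 of the 233 were called lower and the median was -0.81. In RNA from whole cultures, fewer cycling cells and less RNA per cycling cell cannot be told apart.

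**Figure D4:**
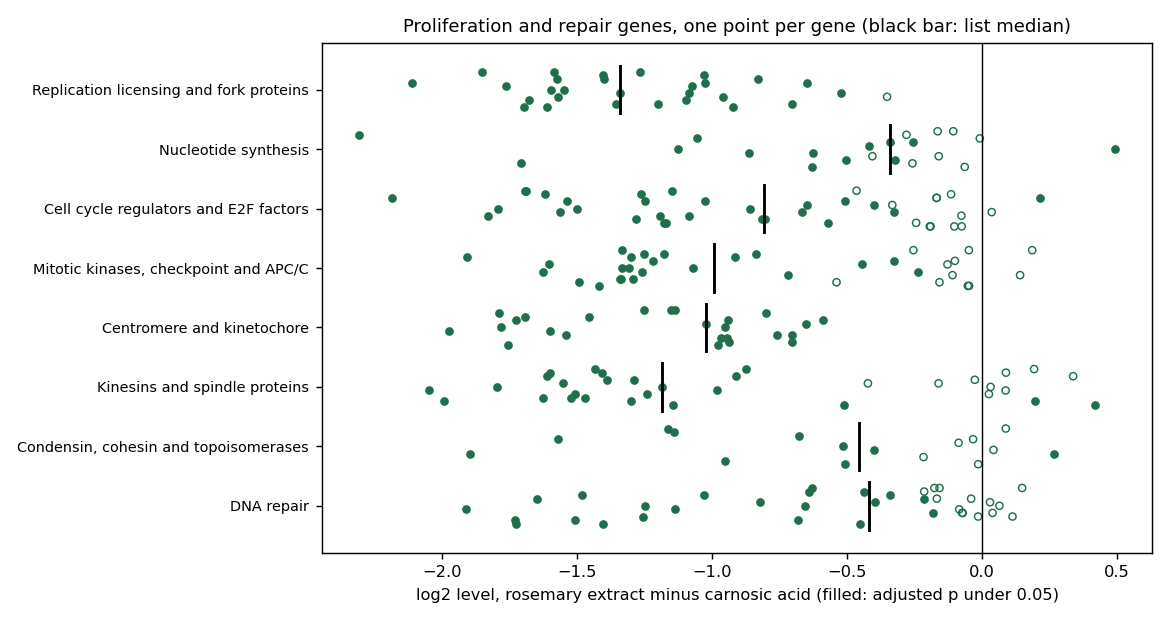
Log2 difference, rosemary extract minus carnosic acid (horizontal axis), for each tested gene of 8 proliferation and repair lists. Filled points have an adjusted p under 0.05 and black bars give list medians. The replication list has its median at -1.34 and all but 1 gene filled, and the repair list spreads from -1.91 to above 0.

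Replication genes were lower almost throughout, 28 of 29 tested, with a median of -1.34. GINS2, a subunit of the replicative helicase, measured 6.15, 5.92 and 6.45 with extract and 7.73, 8.08 and 8.26 with carnosic acid. FEN1, the flap nuclease, was at 7.10, 7.18 and 7.46 against a carnosic acid mean of 8.92, which is 3.20-fold lower with extract (limma adjusted p = 7.16e-07). MCM3 and MCM6 of the MCM helicase were 2.64-fold and 2.65-fold lower, and PCNA, the sliding clamp, was at 9.34, 9.21 and 9.41 against 10.56, 10.58 and 10.63. No array of either group crossed into the other for these genes. In nucleotide synthesis 12 of 21 were called lower and 1 higher. RRM2 and RRM1, subunits of ribonucleotide reductase, were 3.27-fold and 2.08-fold lower, while RRM2B, the p53-inducible subunit, was the member called higher, at 7.19, 7.28 and 7.08 against 6.75, 6.53 and 6.79. TYMS, thymidylate synthase, had the lowest difference of the named genes, -2.30, and TICRR, a replication initiation factor, was at 6.67, 7.13 and 7.07 against 8.86, 9.02 and 9.31.

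Cell cycle regulators were called lower in 27 of 40 and higher in 1, with a median of -0.81. CCNE2, a cyclin of S phase entry, was at 5.76, 5.76 and 5.86 with extract and at 7.49, 7.53 and 7.74 with carnosic acid, the latter 0.20 above untreated. E2F8, an E2F repressor, was at 7.06, 6.75 and 7.36 against 9.20, 9.13 and 9.40. CCNA2 was 3.23-fold lower and RBL1, the pocket protein p107, 2.90-fold lower. CDK1, the mitotic kinase, had extract arrays at 6.40, 6.38 and 6.38 and carnosic acid arrays at 8.10, 8.15 and 8.39. CCND1, the G1 cyclin, did not separate the groups (-0.07, interval -0.21 to 0.06). CDK7 was the member called higher, by 0.22, and was not called without extract array 1 or 2 or carnosic acid array 2 or 3. CDKN1A had no named row and was not analysed here.

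Mitotic genes followed. Mitotic kinase, checkpoint and APC/C genes were called lower in 23 of 34 (median -0.99), centromere and kinetochore genes in 25 of 25 (median -1.02), and kinesins and spindle proteins in 22 of 33 with 2 higher (median -1.19). PLK4, the kinase of centriole duplication, was at 6.23, 6.35 and 6.33 with extract and 8.07, 8.06 and 8.50 with carnosic acid, which is 3.75-fold lower. PLK1 and BUB1B, a mitotic kinase and a checkpoint kinase, were 2.39-fold and 2.45-fold lower. CENPI, of the constitutive centromere network, was 3.93-fold lower, with extract arrays between 6.14 and 6.23 and carnosic acid arrays between 7.91 and 8.47. KIF20A, a cytokinesis kinesin, was at 6.97, 7.17 and 6.58 against 8.72, 8.85 and 9.29. TOP2A, topoisomerase II alpha, was at 8.61, 8.73 and 8.58 against 10.23, 10.58 and 10.79. The proliferation marker MKI67, which is in none of these lists, was 3.06-fold lower. In the condensin and cohesin list 9 of 16 were called lower and 1 higher. DNA repair genes were called lower in 22 of 36 and higher in 0, from the helicase BRIP1 at 3.76-fold and the nuclease EXO1 at 3.31-fold to smaller differences of the mismatch repair gene MSH6 (-0.82) and the nick sensor PARP1 (-0.68).

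Of these lists, 2 replication and 2 mitotic promoters are printed to show the letters that each group often held. Capitals mark an E2F-like site in PCNA and MCM6, searched as TTTGGCGC, TTTCCCGC, TTTCGCGC or TTTGCCGC, and the cell cycle homology region, searched as TTTGAA, in PLK1 and KIF11, on both strands.
PCNA: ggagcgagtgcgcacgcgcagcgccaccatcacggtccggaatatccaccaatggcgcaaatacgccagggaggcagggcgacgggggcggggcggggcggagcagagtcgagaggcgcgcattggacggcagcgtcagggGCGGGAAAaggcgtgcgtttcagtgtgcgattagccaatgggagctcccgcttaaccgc
MCM6: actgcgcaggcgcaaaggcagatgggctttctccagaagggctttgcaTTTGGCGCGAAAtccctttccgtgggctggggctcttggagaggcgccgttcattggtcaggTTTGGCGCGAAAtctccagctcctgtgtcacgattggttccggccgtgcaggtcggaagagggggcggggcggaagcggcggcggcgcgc
PLK1: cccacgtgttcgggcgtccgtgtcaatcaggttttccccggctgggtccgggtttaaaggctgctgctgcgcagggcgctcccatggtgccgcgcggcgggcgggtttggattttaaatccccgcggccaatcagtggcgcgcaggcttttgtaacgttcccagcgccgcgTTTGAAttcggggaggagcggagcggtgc
KIF11: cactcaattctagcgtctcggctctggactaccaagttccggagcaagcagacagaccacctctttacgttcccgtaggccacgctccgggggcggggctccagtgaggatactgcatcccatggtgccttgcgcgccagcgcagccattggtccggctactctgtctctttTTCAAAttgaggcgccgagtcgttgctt
They lie at chr20:5126623-5126822 and chr2:135876444-135876643 on the minus strand and chr16:23678689-23678888 and chr10:92592930-92593129 on the plus strand, and the 4 capitalised matches in MCM6 overlap in pairs. E2F-like letters were present in 13 of 23 replication promoters of 300 bases (56.5%) and 2 of 29 mitotic kinase promoters (6.9%). Their share was 5% over promoters of tested genes and 3.31% over all promoters in the table. E2F-like letters were also in 5 of 20 promoters of ER-associated degradation and sensor genes (25%), a list called higher in part. TTTGAA was present in 2 of 23 replication promoters (8.7%), 13 of 29 mitotic kinase promoters (44.8%) and 18 of 32 kinesin and spindle promoters (56.2%). Its share was 9.92% over promoters of tested genes and 15.2% over all promoters. Both kinds of gene were lower with the extract, replication genes by a median of -1.34 and mitotic kinase genes by -0.99.

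Nuclear pore and transport genes were called lower in 19 of 36 and higher in 1, with a median of -0.27. NUP107, of the Y complex of the pore, was at 7.29, 7.16 and 7.06 with extract and 8.12, 8.12 and 8.24 with carnosic acid, a 1.99-fold difference. NDC1, a transmembrane nucleoporin, was 1.81-fold lower. TNPO1, an import receptor, was the member called higher, by 0.29. LMNB1, lamin B1, which is not in this list, was 3.09-fold lower. Ribosome biogenesis genes gave 8 of 55 lower and 0 higher, and 5 lower without carnosic acid array 3. The called share, all of it lower, was 14.5%, against 17.3% of all genes called either way and 9.07% called lower. The shift was small, with a median of -0.11.

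Several other lists held calls in both directions or few calls. Their shares called are given in brackets, against 17.3% of all genes. MAPK feedback and immediate early genes were called higher in 6 of 36 and lower in 6 (33.3%), with the phosphatase DUSP5 1.74-fold higher and FOS 1.47-fold lower. Hypoxia-linked and glycolysis genes were called higher in 5 of 21 and lower in 2 (33.3%). Junction and keratin genes were called higher in 2 of 29 and lower in 6 (27.6%), and genes of the BCL2 family and caspases higher in 2 of 21 and lower in 2 (19.0%). The higher junction genes numbered 5 without extract array 3. Interferon-stimulated genes were called higher in 2 of 18 (11.1%), p53 targets higher in 2 of 14 and lower in 1 (21.4%), and respiratory chain subunits lower in 1 of 16 (6.25%). NF-kB targets and chemokines were called higher in 1 of 11 and lower in 2 (27.3%), and goblet and enteroendocrine markers higher in 1 of 13 and lower in 0 (7.69%). Mitochondrial ribosomal proteins were called lower in 6 of 73 and higher in 1 (9.59%), and 0 were lower without extract array 2 or carnosic acid array 3.

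Crypt and Wnt genes were mixed but leaned lower, with 9 of 26 called lower and 2 higher (1 higher without extract array 2). LGR5, the intestinal stem cell receptor, was at 5.17, 5.09 and 5.12 with extract, 6.25, 6.06 and 6.75 with carnosic acid and a mean of 8.11 in untreated cells. The direct difference was -1.23 ± 0.15 (SE; limma adjusted p = 0.000175). PROM1, which encodes CD133, showed the same order, at 6.97, 6.68 and 6.65 against 7.52, 7.47 and 7.51 and an untreated mean of 8.31. DKK1, a secreted Wnt inhibitor and target, was 1.98-fold lower with extract and 0.18 above untreated with carnosic acid. CD44 and MYC were lower, with log2 differences of -0.52 and -0.36. AXIN2, the feedback inhibitor most often read as a Wnt target, went the other way, at 9.73, 9.74 and 9.50 against 9.31, 9.08 and 9.11 and 8.50 untreated. Enterocyte genes were called higher in 2 of 17 and lower in 2 (23.5% called, against 17.3% of all genes). VIL1, the brush border protein villin, was 1.92-fold lower with extract and CDHR5, a microvillar cadherin, 1.39-fold higher. CEACAM5, the carcinoembryonic antigen, was high with both treatments, at 10.17, 9.95 and 9.90 with extract and 9.68, 9.34 and 9.19 with carnosic acid against 7.19 untreated. Its direct difference of 0.60 had a limma adjusted p of 0.0463 and was not called without any extract array, carnosic acid arrays 2 or 3 or untreated array 3 (adjusted p 0.0544 to 0.177).

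Genes of other functions were also widely separated. SLFN5, a Schlafen protein, measured 10.60, 10.65 and 10.45 with extract and 8.75, 8.75 and 8.67 with carnosic acid, a 3.59-fold difference. ULBP1, a ligand of the natural killer receptor NKG2D, was at 5.78, 6.61 and 6.26 against 4.48, 4.69 and 4.35. MAP2, a microtubule protein, KDM7A, a histone demethylase, and SPIRE1, an actin nucleator, were 2.95-fold, 2.88-fold and 2.76-fold higher. Within the hypoxia and glycolysis list counted above, NDRG1, a stress-responsive gene, was 2.59-fold higher and HK2, hexokinase, 1.42-fold lower. LCN2, an iron-siderophore binding lipocalin, was higher by 1.10 ± 0.0872 (SE) and did not exceed its untreated mean with carnosic acid (-0.16). Among the lower genes, ADGRF1, an adhesion receptor, was at 6.23, 6.11 and 6.39 against 8.32, 8.35 and 8.56, and MNS1, a protein of cilia and meiosis, at 6.82, 6.67 and 6.89 against 8.75, 8.87 and 9.14. MELK and WDR76, a mitotic kinase and a DNA damage-linked repeat protein, were 3.61-fold and 3.54-fold lower. Chosen after their values were seen, the cytokine receptor IL17RB was 3.53-fold lower, the receptor VIPR1 2.25-fold lower and PTGS2, which encodes cyclooxygenase-2, 2.23-fold lower with the extract, and carnosic acid left them -0.01, -0.22 and -0.10 from untreated.

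Only 2 called genes had their treated means on opposite sides of the untreated mean by over 0.4 each, and in both carnosic acid was above and the extract below. CEMIP, a hyaluronan-binding protein, was at 6.63, 6.63 and 6.94 with extract, 8.01, 7.87 and 8.15 with carnosic acid and a mean of 7.42 untreated, and the direct difference was -1.28 ± 0.104 (SE; limma adjusted p = 7.10e-06). TRIM31, an intestinal ubiquitin ligase, was at 8.20, 8.28 and 8.65 against 9.55, 9.63 and 9.67, with 8.98 untreated. Chosen after their values were seen, GNE, the entry enzyme of sialic acid synthesis, and FFAR4, a fatty acid receptor, were called higher with carnosic acid than with the extract or in untreated cells. GNE was at 7.65, 7.84 and 7.97 with extract and 8.64, 8.65 and 8.69 with carnosic acid, against 7.94 untreated. FFAR4 was at 10.07, 9.90 and 10.04 against 10.69, 10.65 and 10.53, with 10.14 untreated.

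Some genes moved to the same level under both treatments. In a choice made after the values were seen, these were genes at least 2-fold from untreated with each treatment, with the interval of the direct difference within 0.5. MAOB, a monoamine oxidase, measured 8.23, 8.13 and 8.07 with extract and 8.38, 8.03 and 8.03 with carnosic acid against 6.05 untreated, and its interval was -0.26 to 0.25. TRAM2, a protein of ER translocation, differed by 0.00 with an interval of -0.13 to 0.14, at a mean of 9.48 with extract and 9.47 with carnosic acid. FECH, which inserts iron into heme, had an interval of -0.15 to 0.16. CCN2, a secreted matrix protein, was lowered by both, at 7.67, 7.61 and 7.50 with extract and 7.71, 7.50 and 7.55 with carnosic acid against 8.63 untreated.

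**Figure D5:**
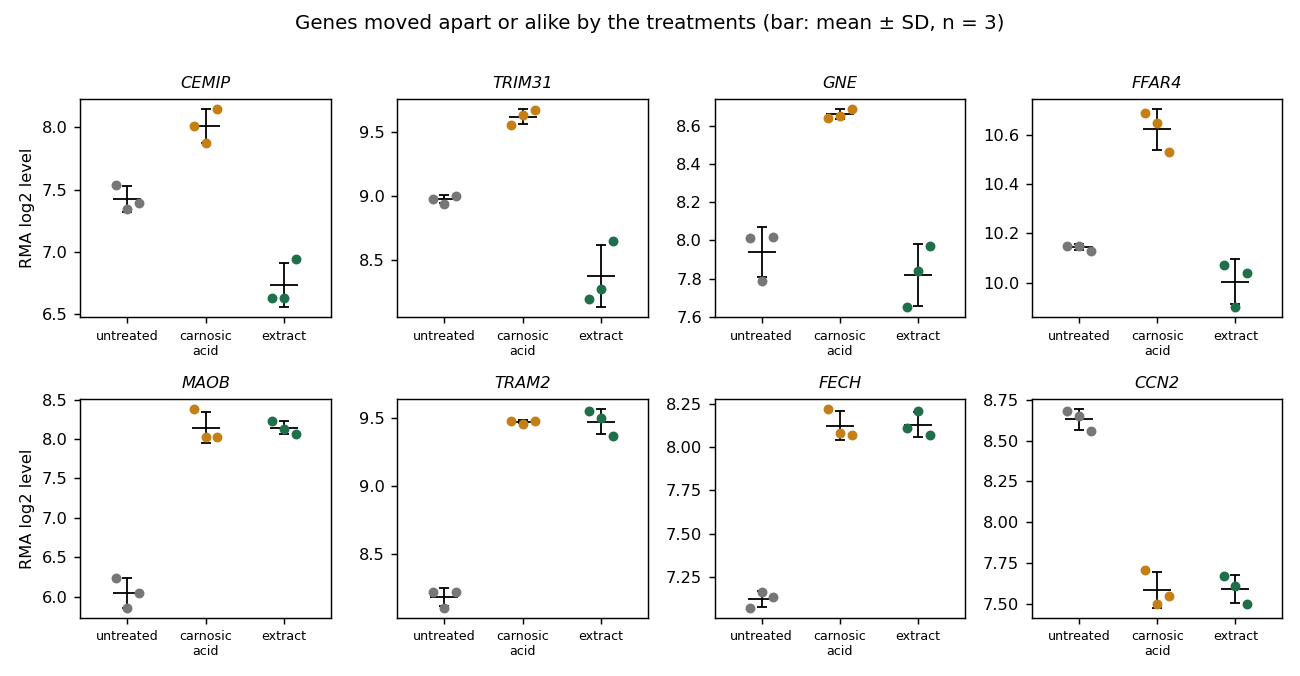
RMA log2 level of 8 genes in the untreated, carnosic acid and rosemary extract groups, each panel with its own vertical axis. Points are arrays and black bars the mean ± SD of 3 arrays. CEMIP and TRIM31 lie above untreated with carnosic acid and below it with extract, and MAOB, TRAM2, FECH and CCN2 overlap between the treatments.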

How the data were processed

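Total RNA of 9 HT-29 cultures in 3 groups of 3 was measured on Affymetrix arrays. Per the labels, the authors made the deposited values with RMA from the oligo package in R. The range of the values shows a log2 scale, and no version was stated in the sources used here. RMA compresses large differences and gives no detection call. Of 53617 rows, 16098 had 1 gene symbol in the platform annotation and 37519 were unnamed. Each of 14884 genes was read from its brightest row (779 had more than 1), and the dimmest 25% (3721 genes) were left out. Array medians were 4.82 to 4.90, and replicate arrays correlated at 0.9946 or more. The 3 arrays of a group held exactly equal values in 641 to 837 rows, against 567 to 949 for sets of 3 arrays from different groups, so an SD near 0 is not a mark of 1 group.

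Group means of all 9 arrays were fitted with limma 3.58.1 in R 4.3.3 (lmFit, then eBayes with trend; 6 residual degrees of freedom). The test is 2-sided, adjusted by Benjamini-Hochberg over 11163 genes, and errors are limma's SE. P-values measure the spread between these arrays. On simulated data for this comparison with 200 changed genes among 11163, the fit recovered 75% of 1.5-fold and 96.2% of 2-fold changes, and 4.36% of its calls were false. The simulated noise was independent between genes and arrays, and far fewer genes were changed than the 1933 called in the data. These shares therefore need not hold for the calls reported here.

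The comparison, its gene lists and the named genes were chosen with earlier results of these data known. Named genes were taken from the 15 largest differences each way with non-overlapping arrays, per list up to 5 genes of smallest p, a set of stress, sterol, cell cycle and crypt genes whatever their values, and genes on opposite sides of untreated. Other names were picked outside these rules with their values known, whether or not this is said beside them, or show the part of a list called less often. MKI67, LMNB1, GDF15, MCM6, MSH6 and PARP1 are among the names picked outside these rules. Normalization, filters, the fit and single arrays were varied, as given at the end. Deviations from the group mean correlated at 0.21, -0.12 and -0.02 between extract and carnosic acid arrays of the same replicate number. Between arrays of different numbers they correlated at -0.27 to 0.28. With 3 arrays per group these values cannot show whether arrays of the same number were paired.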

Additional observations from a re-analysis of the deposited data

How the results depend on the processing

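The counts of 920 higher and 1013 lower genes and of 8872 intervals within 0.5 were recomputed under other normalizations, filters, fits and arrays. Leaving out 1 array gave 533 to 1036 higher genes, 721 to 1015 lower genes and 8152 to 8874 intervals within 0.5. A test for a difference over 1.2-fold left 150 higher and 365 lower genes, and leaving out the dimmest 50% of genes, which tests fewer genes, left 8872 at 5787. With the replicate number as a block, although a pairing of these arrays is not known, 1947 genes were called, of which 1812 were among the 1933. Median centring moved the higher share of calls from 47.6% to 50.6%, and leaving out extract array 1 to 40.1%. Of 136 named genes with a call, all 136 kept their direction and 129 their call under 17 alternatives; VARS1 lost its call in 11, HMGCS1 in 9, CEACAM5 in 8, CALR and NRARP in 5 each, CDK7 in 4 and HSPB1 in 1, and MTF1 gained a call in 6. Among genes without a call, leaving out 1 array moved MT4 between -0.17 and 0.02 (0.01 without extract array 2, 0.02 without carnosic acid array 1), INSIG1 between -0.14 and 0.03 (without extract array 3) and SREBF1 between -0.17 and 0.01 (without carnosic acid array 3). The causes were not tested. Array signal gives no depth, so low values cannot be told from background.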

Other observations

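Of 18 drug and steroid metabolism genes tested, 1 was called higher and 3 lower with the extract (22.2%), and of 23 genes of the TGF-beta, BMP and Notch pathways 1 was called higher and 2 lower (a share under the 17.3% of all genes). HSD17B2, which inactivates sex steroids, measured 6.34, 6.50 and 6.74 with extract and 7.32, 7.32 and 7.28 with carnosic acid against a mean of 8.39 in untreated cells. HSD17B11, a related lipid droplet enzyme, was at 7.78, 7.56 and 7.39 against 8.35, 8.28 and 8.58, with 9.44 untreated. The groups did not overlap for either gene, and the extract was 1.72-fold lower for HSD17B2 and 1.77-fold lower for HSD17B11. JAG1, a Notch ligand, stood at 10.82, 10.80 and 10.46 with extract, 9.98, 9.78 and 9.61 with carnosic acid and 8.35 untreated, a direct difference of 0.90 ± 0.12 (SE; limma adjusted p = 0.000332). NRARP, a Notch target, went the other way, with a difference of -0.33 (limma adjusted p = 0.0302), and was not called without extract array 1 or 2 or any carnosic acid array. GRB10, an adaptor that restrains insulin signalling and was chosen after its values were seen, was 2.46-fold higher with the extract, with all 3 extract arrays above the carnosic acid arrays.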
